A study of Mus musculus with 5 samples.

Results

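The immunoglobulin heavy chain locus, Igh, was described in 1 deposited list of H3K27ac peaks from mouse bone marrow cells. Its members were the gene segments with symbols beginning Ighv, Ighd, Ighj, Ighm, Ighg, Ighe or Igha inside chr12:113200001-116100000 of build GRCm38, and the peaks with a summit in that span. This gave 215 segments of 49943 annotated genes, and 132 peaks of 22948. The segments were 183 V, 20 D, 4 J and 8 constant genes. All cells were CD45.2+ and Lineage-, carried Sca1+ and Kit+ at their surface, were labelled HSC/MPP (haematopoietic stem cells and multipotent progenitors), and had the genotype Mll3/4 deleted. Mll3 and Mll4 are histone methyltransferases that act mainly at enhancers, and the labels used here do not give the Cre, the ages of the mice or whether animals were pooled. The samples were 4 libraries of H3K27ac and 1 of input, all of that genotype and read as 1 pooled list, so no other genotype and no gain or loss is described here.

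H3K27ac, acetylation of lysine 27 of histone H3, marks active promoters and enhancers. The heavy chain of an antibody is encoded by separate V, D and J segments, which developing B cells join by cutting and ligating the DNA, first D to J and then V to DJ. The locus is transcribed towards lower coordinates, so the V segments lie at the high end and the constant genes, which set the antibody class, at the low end. The intron between the J segments and Ighm holds the enhancer known as Eμ, and a 3′ regulatory region lies beyond Igha. Unrearranged segments are transcribed before joining, and in B-cell precursors the distal V segments are known to depend on Pax5 and on contraction of the locus.

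The span was the part of the genome with the highest number of peaks when chromosomes were divided into 928 consecutive windows of 2.9 Mb. It held 132 peaks, the next window, on chromosome 4, held 109, and the median window held 20. The span was counted whole, with its own limits, while other dense stretches may be split between windows. The rank thus holds for this kind of division only. There were 45.5 peaks per Mb in the span and 8.43 per Mb over all chromosomes, a ratio of 5.40. The span held 12.3% of the 1073 peaks of chromosome 12. When peaks with signal values under 4 were left out, the span ranked 2. Its peaks were close to the others in width and strength. The median width was 855.5 bp (95% order-statistic interval 568 to 1028 bp), against 854 bp in the list. The median signal value, which is column 7 of the list and the authors' enrichment over background, was 3.15 (2.90 to 3.55), against 3.27. The list pools the libraries, so no value has a replicate error, and intervals cover counting error over peaks or segments only. It also cannot tell many weakly acetylated cells from few strongly acetylated ones. A q-value above 0.05 was attached to 32 of the 132 peaks (24.2%), near the share of 21.2% in the whole list.

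**Figure D1:**
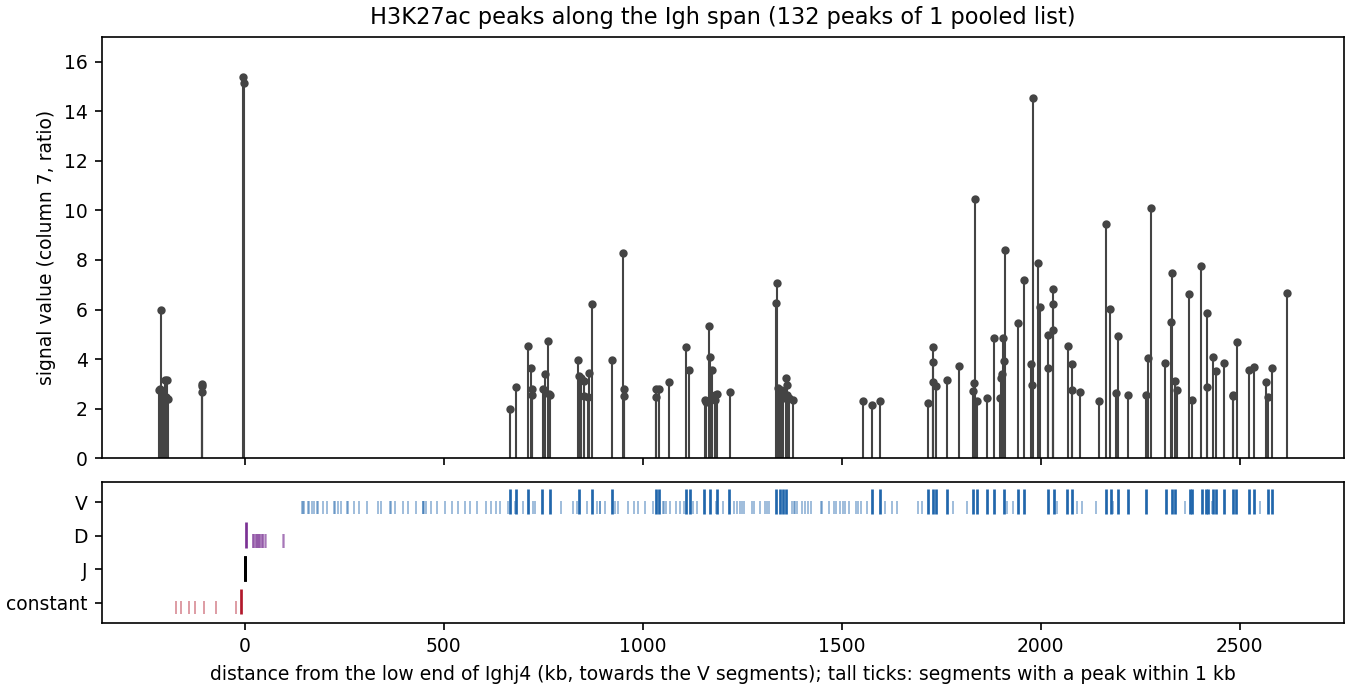
Upper panel: signal value of each of the 132 peaks (vertical axis, ratio) against the distance of its summit from the low end of Ighj4 (horizontal axis, kb). Lower panel: each segment by class, with tall ticks for segments within 1 kb of a peak. The 2 highest peaks have their summits between Ighm and J, the D segments and the nearest 45 V segments lie in a stretch without peaks, and the distal V segments lie among many.

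Peaks were unevenly spread over the parts. The V part, 2437 kb long, held 117 peaks, or 48.0 per Mb. The 3′ flank, 56.2 kb between the low limit of the span and Igha, held 8, or 142 per Mb. The constant part held 3 in 166.5 kb, the gap between Ighm and the J segments held 2 in 5.78 kb, and the 5′ flank beyond the last V segment held 2 in 90.0 kb. Of these flank peaks, 1 overlapped Ighv1-86, the last V segment, with its summit just past it, and the other overlapped the gene Zfp386. No summit lay in the J part (1.32 kb), the gap from J to D, the D part (96.3 kb) or the gap from D to V (46.1 kb).

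The 2 peaks with summits between Ighm and the J segments were the strongest of the locus. The first, chr12:113421275-113424372, was 3098 bp wide and had a signal value of 15.4 (−log10 q 68.6). It overlapped Ighm, the constant gene of IgM, and its summit lay 1.35 kb beyond the high end of that gene. The second, chr12:113425208-113429589, was 4382 bp wide and had a signal value of 15.1 (−log10 q 82.9). It overlapped Ighj4, Ighj3 and Ighj2, and its summit lay 2.71 kb below Ighj4. Like that of the first peak, this summit was inside the intron that holds Eμ. Their signal values ranked 36 and 43 in the list of 22948, and by p-value they ranked 39 and 18. The peaks were 835 bp apart and together covered 85.6% of the gap between Ighm and J, and 81.5% of the J part. Ighj1, the J segment farthest from Ighm, was not overlapped but lay within 1 kb of the second peak.

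Among the constant genes, Ighm alone lay within 1 kb of a peak. Ighd, Ighg3, Ighg1, Ighg2b, Ighg2c, Ighe and Igha, which encode the constant parts of IgD, the IgG subclasses, IgE and IgA, had none. The 3 peaks of the constant part stood together on the far side of Ighg1 from J, with summits 4.34 to 5.71 kb beyond its low end. They were narrow, 323, 477 and 678 bp, with signal values of 2.92, 3.01 and 2.68. The 8 peaks of the 3′ flank had summits 20.1 to 43.7 kb beyond Igha, on the side of the 3′ regulatory region. The strongest, chr12:113218207-113219899, reached 5.998 in signal value (−log10 q 13.7), and the other 7 had signal values from 2.38 to 3.17. The median signal value of the flank was 2.77 (2.38 to 5.998), and its median width was 691.5 bp (241 to 1850 bp). In the V part the medians were 3.22 (2.87 to 3.64) and 841 bp (562 to 1047 bp). With 8 peaks, the intervals of the flank run from its lowest to its highest value. They overlapped those of the V part for both measures, which at this width does not show likeness. The median peak of the flank stood at percentile 29.9 of the list by signal value, and that of the V part at percentile 48.6. With −log10 q of at least 5 the flank kept 1 peak, the constant part none and the V part 41 of 117, while the 2 peaks between Ighm and J remained. In the whole list 36.1% of peaks passed this threshold, and in the span 34.1%. The V part thus kept about the same share as the list.

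**Figure D2:**
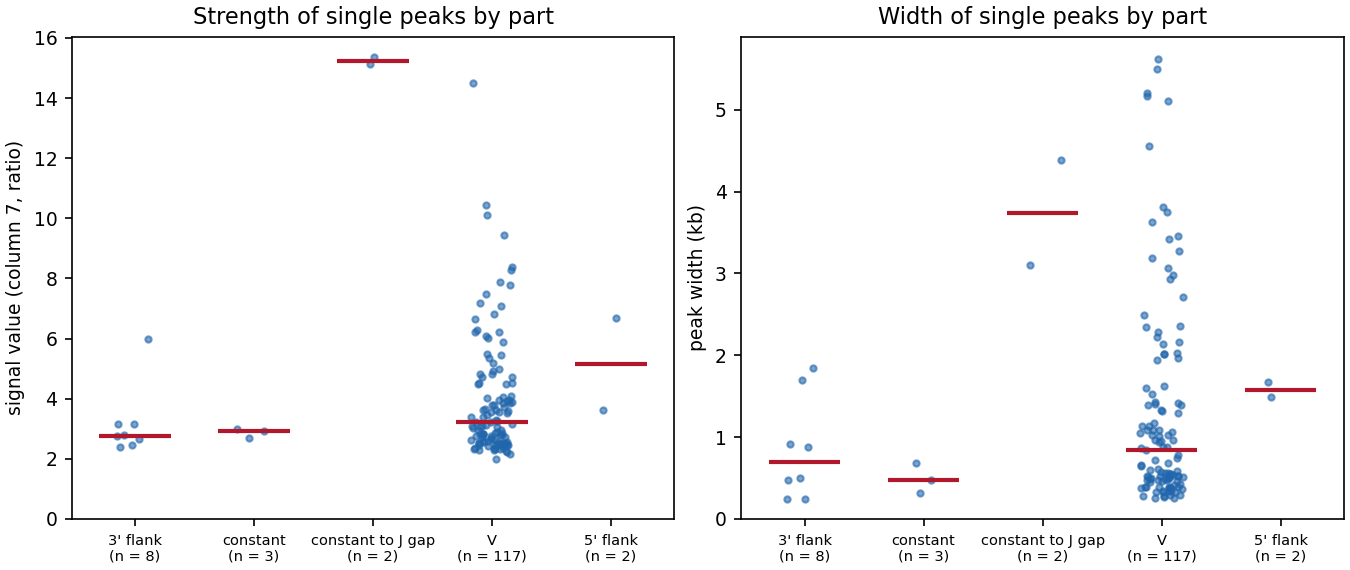
Signal value (left, ratio) and width (right, kb) of each peak, by part of the span, with n peaks in each and red bars at the medians; parts without a summit are left out. The 2 peaks between Ighm and J, at 15.1 and 15.4, are above every V peak, of which the highest is 14.5, while the widest peaks, up to 5.62 kb, are in the V part.

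A segment counted as having a peak when a peak overlapped it or the 1 kb on either side. This held for 59 of 183 V segments (32.2%, 95% Wilson interval 25.9% to 39.3%), 1 of 20 D segments, all 4 J segments and 1 of 8 constant genes. Among annotated genes of all kinds the share was 25.3%, and among those of at most 600 bp, a limit that takes in every V segment, it was 7.67%. The V share was thus above that of other short genes. The 4 J segments and the single D segment, Ighd4-1, owed their count to the same peak. Ighd4-1 is the D segment nearest to J, and the other 19 had no peak. When a summit had to lie within the window, the D, J and constant counts were all 0.

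The longest stretch of the span without a peak ran for 664 kb, chr12:113429590-114093778. It held Ighj1, all 20 D segments and the 45 V segments nearest to D. These included Ighv5-1, the first V segment, all 11 members of family 2 and 20 of the 21 of family 5, the families near the D segments. The first V peak began 521 kb into the V part, at Ighv9-1. It was weak, at 2.00 in signal value (−log10 q 0.364). No peak was found at the first 45 V segments (95% Wilson interval 0% to 7.87%), against 59 of the 138 from there on (42.8%, 34.8% to 51.1%). That boundary was set by the peaks themselves, so the pair of shares is a description. Smaller stretches without a peak lay further out, the longest being 175 kb with 19 V segments and 121 kb with 6.

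The V part was also divided into 3 stretches of 812 kb. A peak was found at 8 of 67 V segments in the stretch next to D (11.9%, 6.18% to 21.8%), 18 of 71 in the middle (25.4%, 16.7% to 36.6%) and 33 of 45 in the distal stretch (73.3%, 59.0% to 84.0%). Stronger peaks were mostly in the distal stretch. V peaks whose signal value was 4 or more numbered 36, of which 4, 6 and 26 were in these stretches. The 41 at −log10 q of 5 or more were split 6, 6 and 29. Peaks of any strength were also most numerous in the distal stretch, with 23, 36 and 58 in the same order. In the whole list 7787 of 22948 peaks had a signal value of 4 or more, and 36.1% had −log10 q of 5 or more. The median signal value was 3.11 in the stretch next to D (2.60 to 3.64), 2.76 in the middle (2.49 to 3.06) and 3.82 in the distal stretch (3.39 to 4.83). The distal interval did not overlap that of the middle stretch but did overlap that of the stretch next to D. Median widths were 870 bp (505 to 1603 bp), 546 bp (409 to 939 bp) and 1042 bp (646 to 1416 bp), with overlapping intervals.

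**Figure D3:**
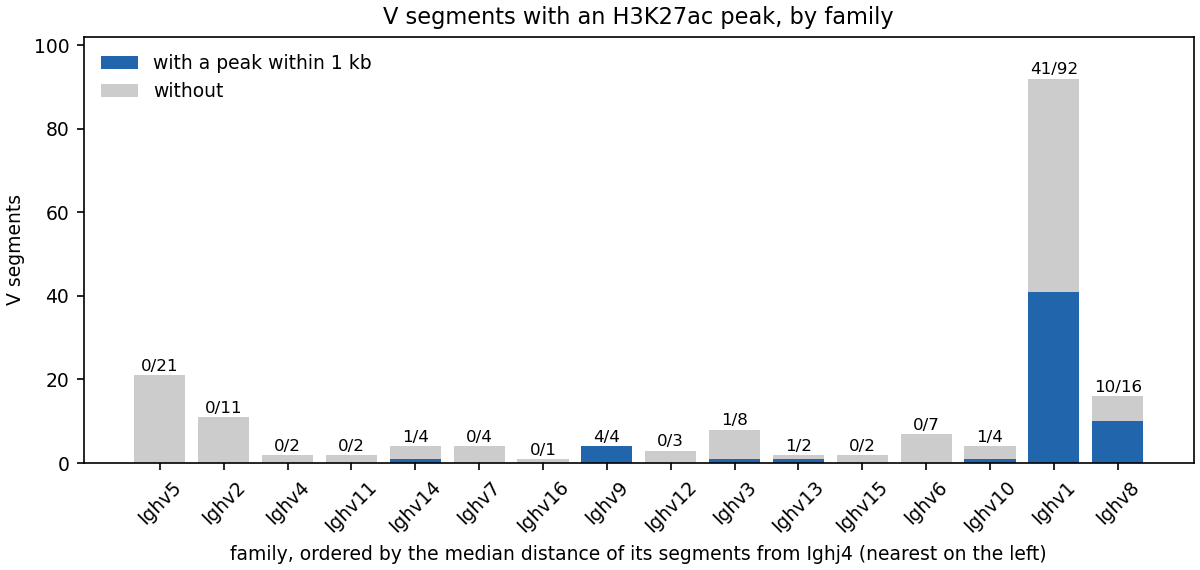
Number of V segments (vertical axis) in each family, with the number that lay within 1 kb of a peak in blue and the others in grey; families run from the nearest to the J segments on the left to the farthest on the right. Families 1 and 8 hold 51 of the 59 segments with a peak, and families 5 and 2, with 21 and 11 segments, hold none.

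Of the 16 V families, 7 had a segment with a peak. Family 1, the largest, had 41 of 92 (44.6%, 34.8% to 54.7%). Family 8 had 10 of 16 (62.5%, 38.6% to 81.5%) and family 9 all 4 (51.0% to 100%). Families 3, 10, 13 and 14 had 1 segment each. The 9 families without a peak held 53 segments. Families occupy different stretches of the locus, so family and position cannot be told apart for most of them. Family 1 lies in the middle and distal stretches except for 1 segment next to D, which had a peak, and within it 13 of 56 segments had a peak in the middle (23.2%, 14.1% to 35.8%) against 27 of 35 in the distal stretch (77.1%, 61.0% to 87.9%). These intervals did not overlap. Family 8 did not show this order, with 4 of 5 in the middle and 6 of 10 in the distal stretch. The peaks at family 8 were weak, with the strongest at 3.12 at Ighv8-13. With −log10 q of at least 5, 26 V segments had a peak, of which 23 were of family 1, 2 of family 9 and none of family 8.

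A peak was found at 10 of 63 segments annotated as pseudogenes (15.9%, 8.86% to 26.8%) and at 49 of 120 others (40.8%, 32.5% to 49.8%), and these counting intervals did not overlap. Past the first V peak the counts were 10 of 46 and 49 of 92. Pseudogenes were also unevenly placed. In the distal stretch they were 9 of 45 segments, and 4 of the 9 had a peak, while in the middle they were 29 of 71, of which 5 had one. V segments of a family are near-identical in places, and how reads that fit several of them were treated is not given in the sources used here, so a missing or weak peak at a single segment is uncertain.

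The segments with the strongest peaks within 1 kb were mostly of family 1 in the distal stretch. Ighv1-57, a pseudogene, led with a signal value of 10.4 from a peak beside it, and the peak that overlapped it had 2.32. Ighv1-66 followed with 9.46, Ighv1-75 with 7.77, Ighv1-72 with 7.47 and Ighv1-62-1 with 7.19. The next were Ighv1-23 (7.07), Ighv1-62-3 (6.82), Ighv1-74 (6.64), Ighv9-4 (6.21) and Ighv1-67 (6.02). Ighv9-4, in the stretch next to D, was the sole member of another family among these 10. In the distal stretch 12 segments had no peak, among them Ighv1-55, Ighv1-84 and Ighv8-16.

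Summits gathered at V segments. Of the 117 V summits, 56 (47.9%) lay within 1 kb of a segment, while the segments with 1 kb on either side made up 17.1% of the V part, and 16.6% of it past the first peak. Inside a segment itself lay 20 summits (17.1%), against 2.43% of the sequence. The median distance to the nearest segment was 1.05 kb. However, 66 V peaks overlapped no segment, and these were about as strong, with a median signal value of 3.13 (interquartile range 2.60 to 4.01) against 3.30 (2.55 to 4.88) for the 51 that did. They included chr12:115337605-115340883 (signal value 8.39), chr12:114376756-114380563 (8.26) and the widest peak of the locus, chr12:114187141-114192762, which was 5622 bp wide with a signal value of 4.71.

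A peak overlapped 52 V segments directly. V segments are transcribed towards J, so the high end of the annotated segment was used in place of a start. The annotated V segments had a median length of 294 bp, and whether they reach the transcription start was not tested. Sides were counted from the high end, and at other genes from the annotated start, so the origins may differ. Those other starts all lay inside a peak, whereas at Ighv1-62-3 and Ighv1-25 the high end lay outside it. At Ighv1-62-3 and Ighv1-25 the longer side was thus downstream by construction. The longer side of the peak lay towards J, or downstream, at 35 of the 52 (67.3%, 53.8% to 78.5%). At 3817 annotated gene starts inside a peak the longer side was downstream in 69.1%, which lies inside that interval. At the 15 segments with a peak of at least 2 kb the share was 86.7% (62.1% to 96.3%), with medians of 2231 bp downstream and 445 bp upstream, and at 1249 gene starts in peaks of that width it was 67.1%. At the 37 segments with a narrower peak it was 59.5% (43.5% to 73.7%), with medians of 318 and 181 bp, and at 2568 gene starts it was 70.1%. Both background shares lie inside the V intervals. The result depends on the point of origin, since with the body of the segment left out, and each side counted from its own end, the longer side lay towards J at 18 of 52 (34.6%, 23.2% to 48.2%). Some extents were far longer than a segment. The 3 that reached farthest towards J are given here. Beyond the segment, the peak at Ighv1-66 reached 4499 bp towards J and 373 bp the other way, that at Ighv1-75 4372 and 445 bp, and that at Ighv1-67 2869 and 582 bp. The peak at Ighv1-66 also overlapped the pseudogene Rpl7a-ps2, so it cannot be assigned to either. Of the 33 segments with a peak of a signal value under 4, 28 had the summit on the side away from J of the segment's middle. The median offset over all 33 was 129 bp to that side. Of the 19 with a signal value of 4 or more, 10 had the summit on the side towards J, and the median offset was -209.5 bp, with negative values towards J. The limits of 2 kb and 4, and the count from the high end, were taken after the values had been seen.

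**Figure D4:**
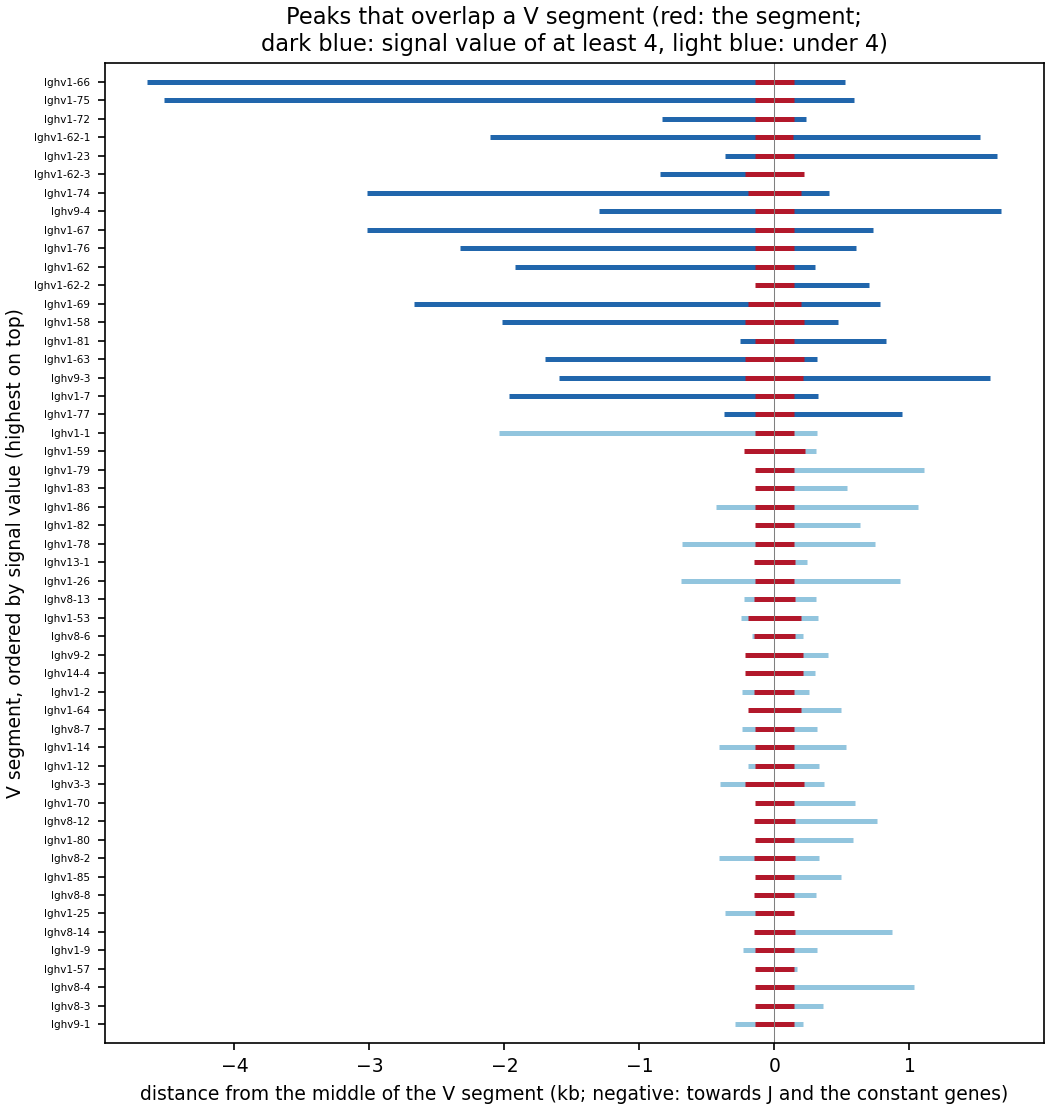
Extent of the peak at each of the 52 V segments that a peak overlaps (horizontal axis, kb from the middle of the segment, negative towards J), ordered by signal value with the highest on top; red marks the segment, dark blue peaks at 4 or above and light blue those under 4. Dark bars reach up to 4.65 kb from the middle towards J, while 29 of the 33 light bars lie within 1 kb of it, and 26 of the 33 span it.

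Several of the strongest V peaks stood at starts of long non-coding RNA (lncRNA) genes. The annotation has 5 lncRNA genes wholly inside the V part, all transcribed towards higher coordinates and thus opposite to the V segments. The peak past the start of Gm30996, chr12:115407692-115412900, reached 14.5 in signal value (−log10 q 63.7), the third highest value of the locus and rank 56 in the list. That of Gm30948, chr12:115262747-115268238, had 10.4 and is the peak counted above for Ighv1-57, and that of Gm40900, chr12:115703843-115708394, had 10.1, the next in order. These 3 peaks began 78, 96 and 13 bp past the annotated starts and were 5209, 5492 and 4552 bp wide, with summits 991, 928 and 1163 bp past the start. The peak at Gm40899, chr12:114764232-114766245, had a signal value of 7.07 and its summit 999 bp past the start, but it spanned the start and also Ighv1-23, so it cannot be assigned to either. The remaining gene, Gm51964, had no peak over its body. The promoter windows of Gm30948 and Gm30996 lay in gaps of 482 and 499 bp between this peak and a weaker one upstream, with signal values of 3.03 and 2.96.

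**Figure D5:**
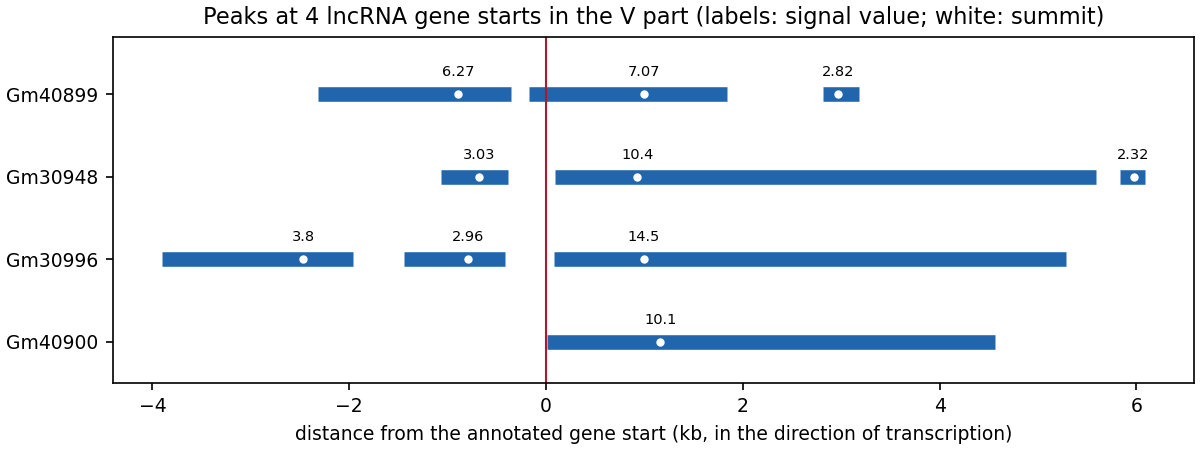
Peaks around the annotated starts (red line) of 4 lncRNA genes of the V part; horizontal axis, kb from the start in the direction of transcription; blue bars are peaks, labels their signal values and white points their summits. At Gm30948, Gm30996 and Gm40900 a peak of 4.55 to 5.49 kb begins within 0.1 kb past the start, and the summits lie at a similar distance past it in all 4.

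The windows from 250 bases before to 50 bases after these starts are printed because those of Gm30948, Gm30996 and Gm40900 are near copies of one another. They are from RefSeq, build GRCm38.p6, plus strand, 5′ to 3′. Capitals mark matches on either strand to CAGGTG, a site that E2A proteins can bind, and to CCAGCAGGG, the first letters of a common form of the CTCF site; both read here as their reverse complement, and the matches do not overlap. Motifs were chosen after the sequences had been seen.
Gm30948, chr12:115262401-115262700: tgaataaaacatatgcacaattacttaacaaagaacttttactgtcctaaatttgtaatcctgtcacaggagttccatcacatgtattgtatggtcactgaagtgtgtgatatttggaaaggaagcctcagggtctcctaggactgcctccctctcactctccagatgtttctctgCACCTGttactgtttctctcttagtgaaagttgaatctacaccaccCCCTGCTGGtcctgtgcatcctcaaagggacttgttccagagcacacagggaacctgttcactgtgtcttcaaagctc
Gm30996, chr12:115407364-115407663: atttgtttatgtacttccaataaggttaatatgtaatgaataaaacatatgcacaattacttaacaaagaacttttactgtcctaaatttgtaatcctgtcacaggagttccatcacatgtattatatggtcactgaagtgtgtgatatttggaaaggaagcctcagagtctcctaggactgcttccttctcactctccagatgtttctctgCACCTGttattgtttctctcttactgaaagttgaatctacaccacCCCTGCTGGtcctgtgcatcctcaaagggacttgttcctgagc
Gm40900, chr12:115703580-115703879: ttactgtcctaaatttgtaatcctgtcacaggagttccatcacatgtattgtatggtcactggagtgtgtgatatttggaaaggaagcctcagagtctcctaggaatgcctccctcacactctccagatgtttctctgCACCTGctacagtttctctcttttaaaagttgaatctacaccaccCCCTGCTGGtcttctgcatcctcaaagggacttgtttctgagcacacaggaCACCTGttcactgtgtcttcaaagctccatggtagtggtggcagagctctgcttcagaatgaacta
Gm40899, chr12:114764158-114764457: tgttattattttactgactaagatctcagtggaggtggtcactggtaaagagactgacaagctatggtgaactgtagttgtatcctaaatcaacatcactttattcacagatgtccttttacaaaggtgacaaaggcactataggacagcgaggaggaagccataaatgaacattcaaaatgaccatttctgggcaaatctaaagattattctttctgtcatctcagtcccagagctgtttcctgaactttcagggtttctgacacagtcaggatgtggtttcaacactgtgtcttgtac

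In local alignments the Gm30948 and Gm30996 windows were identical at 257 of 265 columns (97.0%), Gm30948 and Gm40900 at 247 of 262 (94.3%), and Gm30996 and Gm40900 at 211 of 227 (93.0%). The shared block sits at different distances from the 3 annotated starts. The CTCF-type letters began 28 bases before the start of Gm30948, 67 before that of Gm40900 and at base 8 past that of Gm30996, counting the first transcribed base as 1. Each of the 3 also held CAGGTG, Gm40900 at 2 places. Among 32851 promoter windows of this length, 0.919% held CCAGCAGGG and 20.2% held CAGGTG. The octamer ATGCAAAT, which is known from V promoters, was in none of the 5 lncRNA windows and in 1.74% of all windows. The Gm40899 and Gm51964 windows held none of the 3 motifs. Gm40899 was identical to Gm30948 at 47 of 70 aligned columns (67.1%), to Gm30996 at 154 of 266 (57.9%) and to Gm40900 at 164 of 282 (58.2%). Gm51964 aligned with the same 3 windows at 59.1% to 61.2% identity, a similar level. The distal V region is known to hold repeated elements, named PAIR, that bind Pax5, E2A and CTCF and give antisense transcripts in B-cell precursors; whether these windows are such elements was not tested. Sequences upstream of the V segments were not used here.

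Other antigen receptor loci had few peaks. Between the outermost Igh segments lay 122 peaks, or 44.3 per Mb, and 65 of 215 segments had one (30.2%, 24.5% to 36.7%). The κ light chain locus, of similar length, had 8 peaks (2.52 per Mb), with signal values up to 3.52, and 3 of 168 segments (1.79%, 0.609% to 5.12%). The T-cell receptor loci had 1 peak for Tcra/Tcrd in 1.80 Mb, 2 for Tcrb in 0.667 Mb and 1 for Tcrg in 0.174 Mb. That made 0.557, 3.00 and 5.74 peaks per Mb, where the whole list had 8.43. The λ light chain locus had none in 0.199 Mb. Counts at Tcrg and the λ locus are limited by these short lengths. Segments with a peak were 1 of 202 for Tcra/Tcrd, 0 of 53 for Tcrb, 0 of 15 for Tcrg and 0 of 12 for λ. The share over all genes was 25.3%, and 7.67% for those of at most 600 bp. With −log10 q of at least 5 there were 43 peaks at Igh and 0 at each of these others.

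A list of 36 genes that act on the locus or on its first products was set beside this. Of them 30 had a peak within 1 kb of an end, against 36.2% of protein-coding genes. They included Rag1 (signal value 9.31) and Rag2 (6.76), the recombinase that cuts the segments, and Dntt (11.1), which adds bases at the joints. Ebf1 (12.4), Pax5 (8.45) and Yy1 (6.49), factors linked to heavy chain rearrangement, also had one, as did Vpreb1 (8.42) and Igll1 (6.10), the surrogate light chain. Those without one included Ikzf3, Irf8 and Pou2f2, which are transcription factors, Rad21, a cohesin subunit, and Xrcc6, a part of the Ku end-joining complex. Outside the locus, the nearest protein-coding genes were Tmem121 on the constant side, with a peak of 3.67, and Zfp386 on the V side, with 6.67.

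Against the label, 5 of 10 HSC/MPP markers had a peak at an end, where the share of all protein-coding genes was 36.2%, with Kit, Flt3 and Meis1 among them and Ly6a, the gene of Sca1, and Cd34 without one. Of 5 B-cell markers 3 had one, Cd79a and Cd79b among them, while Ms4a1 and Cd22 did not. The counts were 1 of 5 for T-cell, 1 of 5 for erythroid and 0 of 5 for granulocyte markers. Whether the heavy chain peaks come from a part of the sorted cells was not tested.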

How the data were processed

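ChIPmentation (chromatin immunoprecipitation with tagmentation by Tn5) for H3K27ac was done on sorted bone marrow cells, per the labels. The authors deposited 1 peak list for 4 H3K27ac libraries over input. The submitters' processing notes name BWA, MACS2 and build mm10, without versions or settings. The deposited columns hold the authors' score, their enrichment ratio (signal value, column 7), −log10 p and −log10 q per peak, and positions. The lowest −log10 p was 2.01. No column holds a single library, so no test between groups was made and the depth is not known.

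Peaks were placed by summit in parts bounded by the outermost RefSeq ends (GRCm38.p6) of each segment class. Coordinates are 1-based. Medians have 95% order-statistic intervals, shares 95% Wilson intervals (SciPy 1.17.1, pandas 2.3.3), and windows were aligned with Biopython 1.88. Functions were tested on simulated peaks. Named were all constant genes, the 10 V segments with the highest signal values, the strongest and widest peaks and other genes overlapped. Further segments and genes were named as limits of a stretch or as examples. The members and lists were chosen with earlier results of these data known.

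Alternatives were −log10 q of at least 5, a q-value of at most 0.05, a signal value of at least 4, peaks merged within 1 kb, other windows and other placement rules. The V promoters could not be searched for the octamer, because sequences of the segments were not used here. Some listed genes are counted but not reported here by name.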

Additional observations from a re-analysis of the deposited data

How the results depend on the processing

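Of 155 recomputed values, 106 stayed within 1.5 times the count or inside the interval, and 49 did not. With −log10 q of at least 5 (8291 peaks in the whole list), the numbers of peaks were 1 in the 3′ flank, 0 in the constant part, 41 in the V part and 1 in the 5′ flank. The V medians were 2289 bp and a signal value of 5.45. Peaks were then at 26 V segments, 23 of family 1, 0 of family 8, 2 of family 9 and 1 of other families. There were 43 peaks between the outermost Igh segments and 0 at Igk, Tcra/Tcrd, Tcrb and Tcrg, and the longer side beyond the segment lay towards J at 66.7% of V segments, against 34.6% with all peaks. Counted from the high end of the segment, with all peaks, that share was 67.3%.

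Keeping signal values of 4 or more (7787 peaks), the numbers were 1, 0, 36 and 1 for the same parts, the V medians 2314.5 bp and 5.95, and the segments 23 in all, with 21 of family 1, 0 of family 8, 2 of family 9 and 0 of others. There were 38 peaks between the outermost Igh segments and 0 at Igk, Tcra/Tcrd, Tcrb and Tcrg. The span ranked 2 among windows, and the share towards J was 68.4%. At q-values up to 0.05 the V medians were 1083 bp and 3.79, family 8 had 5 segments with a peak and Tcrb 1 peak. Merging within 1 kb left 1 region in the constant part, 1 between Ighm and J, and a V median width of 1170 bp. By any overlap, 1 peak lay in the J part. With a window of 0 kb, or with summits inside the window, 0 D segments had a peak; with summits, also 0 J segments and 0 constant genes. With 2.5 kb, the other V families had 8 segments. The thresholds keep fewer peaks, merging joins neighbouring peaks, and the overlap, summit and window rules change which peaks are assigned to a part or segment. No further cause was tested. The alternatives for the side of the peak were chosen after seeing the data.

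No paired analysis was possible because peaks were deposited for all libraries together. Leaving out single libraries was not run for the same reason. Depth is unknown, so a segment without a peak is not shown to lack H3K27ac.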

Other observations

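The span held 40 annotated genes that are no members, and a peak overlapped the body of 12 of them, of which 11 were overlapped by a peak of the span. Among annotated genes of all kinds, 25.3% had a peak over the body or the 1 kb on either side, which is a wider rule. The 12 genes are thus listed as a description. These were the 4 lncRNA genes Gm40899, Gm30948, Gm30996 and Gm40900, 5 of the 24 pseudogenes, the microRNA gene Mir7094-1, and Zfp386 and Vipr2 beyond the last V segment. The peak of Vipr2, a gene that runs past the limit of the span, lay outside it. At Mir7094-1 the peak also overlapped the V pseudogene Ighv1-2 and had a signal value of 2.78. The pseudogene Rpl7a-ps2 lay inside the peak that also overlapped Ighv1-66 (signal value 9.46). Gm18551, Gm7142, Gm5660 and Gm9245 had values of 3.95, 3.73, 2.62 and 2.62, the last pair from the same peak. Adam6a and Adam6b, protein-coding genes between and beside the D and V segments, lay in the stretch without peaks.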
